A study of Mus musculus with 6 samples.

Results

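Gluconeogenesis and glucose sensing in the liver were followed through 9 genes measured in Nrf2 knockout and wild-type mice: Pck1, Pcx, Fbp1, G6pc, Slc37a4, Slc2a2, Ppargc1a, Gckr and Pklr. They were chosen by name, as all probe sets of the array annotated to exactly 1 of these symbols, which gave 21 of 45101 probe sets and 9 of 18193 named genes. The names were chosen with earlier results of these data known. Of the 21 probe sets, 4 are Affymetrix control sets that tile pyruvate carboxylase, and 16 of the other 17 were bright enough to be tested, so that each gene had at least 1 tested probe set. The groups were 3 arrays of liver RNA from mice labelled Nrf2 ko and 3 from mice labelled Nrf2 wt, all on a C57B/SV129 background and 10 weeks old. The RNA of 3 animals was pooled for each array. The labels do not say which promoter or allele design removed the gene, whether pools of a genotype shared animals, or whether the mice had been fed. The series concerns insulin and IGF-1 resistance in the liver of these animals, and hepatic glucose output is among the processes that insulin restrains.

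Gluconeogenesis makes glucose from lactate, amino acids and glycerol when food is absent. Pyruvate is carboxylated in the mitochondrion, converted to phosphoenolpyruvate, carried back up the glycolytic chain past a bisphosphatase, and released as free glucose after hydrolysis of glucose-6-phosphate in the endoplasmic reticulum. Glucagon raises transcription of the enzymes through cAMP, CREB and the coactivator PGC-1α, and insulin lowers it through FOXO1. In the fed liver the traffic runs the other way: GLUT2 lets glucose in, and glucose itself induces pyruvate kinase through the transcription factor ChREBP. Nrf2 is a transcription factor of the antioxidant response, encoded by Nfe2l2.

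Promoter sequence is shown for 4 members whose start sites carry the control just described or that stood out in the comparison. The windows are the 250 bases before a RefSeq start site in build GRCm38.p6, written 5′ to 3′ on the strand of the gene. Capitals mark matches, on either strand, to the antioxidant response element core TGACNNNGC, the cAMP response element core TGACG, or the carbohydrate response element to which ChREBP binds, searched as CACGNG and CNCGTG with 5 free bases between them.
Pck1, chr2:173152823-173153072, plus strand: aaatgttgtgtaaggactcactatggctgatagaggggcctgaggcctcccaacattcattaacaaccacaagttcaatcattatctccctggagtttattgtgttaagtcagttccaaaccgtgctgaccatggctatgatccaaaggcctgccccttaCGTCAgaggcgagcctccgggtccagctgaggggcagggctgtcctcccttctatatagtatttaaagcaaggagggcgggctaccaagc
G6pc, chr11:101367466-101367715, plus strand: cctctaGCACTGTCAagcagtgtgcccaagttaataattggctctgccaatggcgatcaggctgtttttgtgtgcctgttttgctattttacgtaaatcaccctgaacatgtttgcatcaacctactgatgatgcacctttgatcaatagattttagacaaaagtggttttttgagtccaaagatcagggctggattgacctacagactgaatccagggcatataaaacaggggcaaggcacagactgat
Ppargc1a, chr5:51567726-51567975, minus strand: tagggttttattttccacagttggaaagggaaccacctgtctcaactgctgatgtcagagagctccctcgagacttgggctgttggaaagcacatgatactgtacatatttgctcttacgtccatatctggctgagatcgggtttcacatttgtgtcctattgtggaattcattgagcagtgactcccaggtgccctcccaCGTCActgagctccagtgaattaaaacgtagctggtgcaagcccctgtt
Pklr (downstream start site), chr3:89136373-89136622, plus strand: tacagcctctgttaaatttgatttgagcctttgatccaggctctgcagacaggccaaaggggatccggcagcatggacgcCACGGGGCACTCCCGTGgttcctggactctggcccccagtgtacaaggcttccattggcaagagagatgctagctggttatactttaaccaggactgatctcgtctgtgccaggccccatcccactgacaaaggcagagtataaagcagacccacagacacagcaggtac

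The carbohydrate response element was found in 1 of the 13 member windows, that of the downstream of 2 Pklr start sites, 170 to 154 bases before it. Its matched letters are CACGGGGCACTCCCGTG, and 0.0396% of 32851 promoter windows of this length in the table hold such a match. The cAMP core was in 4 of the 13 windows, against 17.8% of all windows. It lay 90 to 86 bases before the Pck1 start and 49 to 45 bases before that of Ppargc1a, and the other 2 windows are overlapping ones of Slc37a4. The full palindrome TGACGTCA, which contains the core, was in 0 of the 13 windows and in 1.55% of all. The antioxidant core was in the windows of Fbp1 and G6pc, 2 of 13, against 10.2% of all windows. These matches describe letters in a window and say nothing of binding.

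The arrays carried the genotype they were labelled with. At the brighter Nfe2l2 probe set the intensity was 5.74, 7.40 and 6.90 in knockout pools 1 to 3, against 696, 598 and 625 in those of the wild type. On the normalized scale it fell by 5.64 ± 0.15 log2 (SE, n = 3 per genotype; limma adjusted p = 2.22e-06), while a second, dim probe set differed by 0.14 log2 (adjusted p = 0.925). Whether either lies in the deleted part was not analysed here. The 2% trimmed mean intensity ran from 92.0 to 131, so levels below are quantile-normalized log2 intensities, with 5.26 added before the log, and differences are knockout minus wild type on that scale. The scale understates the change of dim probe sets, and it allows no comparison of level between 2 probe sets. All 6 tested hepatocyte markers were present, their summed intensity being 63203 to 65885 in knockout pools and 60630 to 63995 in wild-type ones. The 3′ to 5′ ratio of the actin controls, a sign of RNA integrity, was 1.97 ± 0.03 (SD, n = 3) for the knockout against 1.86 ± 0.08 for the wild type. The 3 knockout arrays were all above the 3 others (exact two-sided permutation p = 0.1, the smallest that 3 against 3 can give). The part of this ratio in the results below was not tested.

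None of the 9 genes passed an adjusted p of 0.05, and the largest differences were those of a coactivator, a transporter and pyruvate kinase. At their brightest probe sets, 4 were higher and 5 lower in the knockout, with a median of -0.25 log2 against 0.01 over all 11102 tested genes. Over all 16 tested probe sets, 5 of which belong to Ppargc1a, 9 were higher and 7 lower, and the median was 0.12 log2, so its sign depended on how probe sets were counted. The coactivator gene Ppargc1a was furthest from zero, at 0.79 log2 (1.73-fold higher). The glucose-6-phosphate transporter gene Slc37a4 and the pyruvate kinase gene Pklr were at -0.49 and -0.43, and the regulatory gene Gckr was at 0.35. Limma called 0 of the 16 tested member probe sets, where 0.142% of all probe sets were called, and 8 of the 16 had an unadjusted p under 0.05, where 7.63% of all did. By gene, 5 of 9 had an unadjusted p under 0.05 (Ppargc1a, Gckr, Pcx, Pklr and Slc37a4), where 8.22% of all genes did. The groups of 3 did not overlap for 4 of the 9 (Pcx, Slc37a4, Gckr and Pklr), where 13.9% of all genes did not overlap. That count holds on the normalized scale. On the deposited intensities only Pklr was without overlap, 1 of the 9, where 7.25% of all genes were. Because the 9 genes were chosen with earlier results of these data known, none of these shares tests the list against all genes.

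Those counts depended on which arrays were kept. Knockout pool 2 was the lowest of the 6 arrays for 5 of the 9 genes, namely Pcx, G6pc, Slc37a4, Slc2a2 and Pklr, and the highest for Fbp1 and Gckr. Over all tested genes the same pool was lowest for 19.5% and highest for 23.5%. Without it, 1 member gene, Ppargc1a, kept an unadjusted p under 0.05, and the median of the 9 genes was -0.01 log2. The count of 5 was also 2 when wild-type pool 1 or 2 was left out and 3 when wild-type pool 3 was. Each of the 9 genes is therefore also given below without the pool whose omission brought its difference closest to zero or past it. The same is done for each named gene of the wider lists whose difference shrank by over 1.5 times when 1 pool was left out.

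**Figure D1:**
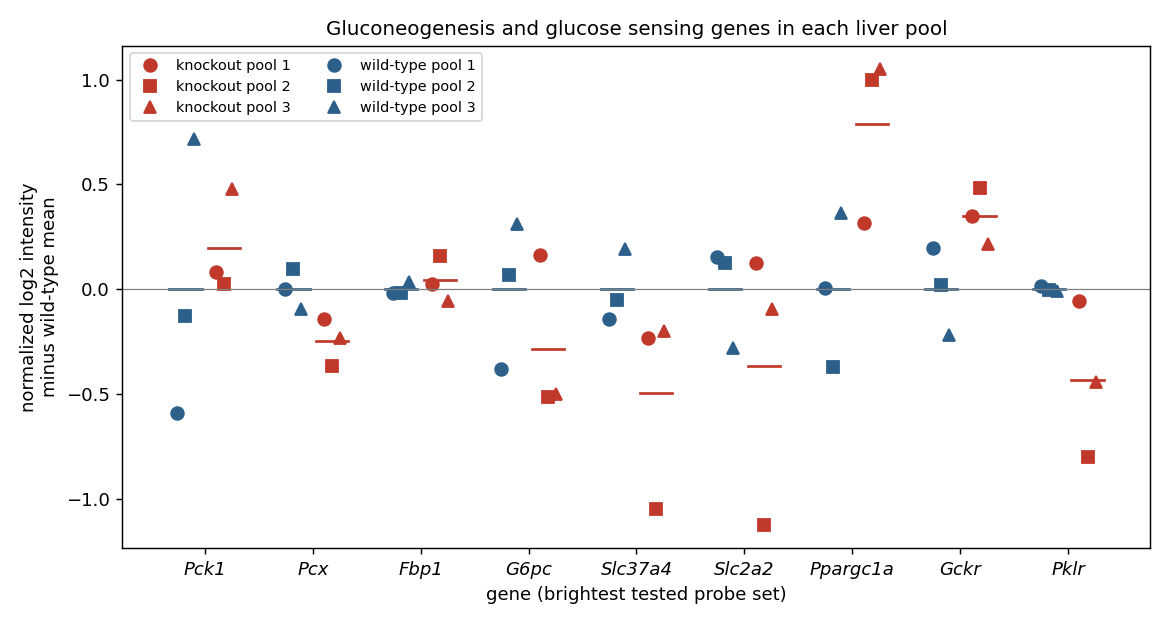
Normalized log2 intensity of each of the 9 genes at its brightest tested probe set, minus the mean of the 3 wild-type pools; each symbol is 1 pool of 3 animals and each bar a group mean. Knockout pool 2 (red square) is the lowest point for Pcx, G6pc, Slc37a4, Slc2a2 and Pklr, and knockout pools 2 and 3 are the highest for Ppargc1a.

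Among the enzymes that start gluconeogenesis, Pck1 and Pcx differed in sign. Pck1 encodes the cytosolic phosphoenolpyruvate carboxykinase, whose transcription is induced by glucagon and repressed by insulin. At its brightest probe set knockout pools 1 to 3 read 11.90, 11.84 and 12.29, against 11.23, 11.69 and 12.54 for wild-type pools 1 to 3. The wild-type pools alone spanned 1.31 log2, and the knockout pools lay inside their range. The difference was 0.20 ± 0.29 (SE, n = 3 per genotype; 95% interval -0.45 to 0.85; limma adjusted p = 0.918). A second tested Pck1 probe set ordered the pools within the wild type the same way, from 9.24 through 9.80 to 11.23, with knockout pools at 10.21, 10.11 and 10.70. Its difference was 0.25 ± 0.43 (adjusted p = 0.934). Wild-type pool 1, at the bottom, and wild-type pool 3, at the top, moved the value most: the brightest probe set gave -0.10 without the first and 0.56 without the other, and the second gave -0.18 and 0.82. The third Pck1 probe set was under the filter, with intensities of 5.19 to 17.5 on all arrays.

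Pcx encodes pyruvate carboxylase, the mitochondrial enzyme that supplies oxaloacetate. At its gene probe set knockout pools 1 to 3 read 10.39, 10.17 and 10.31, against 10.54, 10.63 and 10.44 for wild-type pools 1 to 3, so that every knockout pool was below every wild-type pool on this scale, though not on the deposited one. The difference was -0.25 ± 0.09 (95% interval -0.46 to -0.04; unadjusted p = 0.0268, adjusted p = 0.606), 1.19-fold lower. Without knockout pool 2 it was -0.19 (unadjusted p = 0.0825).

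The array also carries 4 control probe sets of the same transcript, spaced from its 5′ to its 3′ end, which allowed the difference to be read along the message. When they were kept in the fit, a choice made after the data were seen, the 3′ control differed by -0.21 ± 0.13, the middle controls by -0.08 ± 0.10 and -0.09 ± 0.11, and the 5′ control by -0.05 ± 0.12. None of the 4 passed (adjusted p from 0.766 to 0.957), and the genotypes overlapped at each. At the 3′ control, knockout pools read 10.06, 9.68 and 10.07, against 9.99, 10.32 and 10.11 for the wild type, with knockout pool 2 the lowest. For Pcx the 3′ to 5′ intensity ratio was 7.20 ± 1.01 (SD, n = 3) for the knockout against 8.17 ± 1.76 for the wild type (exact permutation p = 0.4), a direction opposite to that of the actin ratio. The probe sets thus shared a sign, and the separation of the genotypes was seen at the gene probe set alone.

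**Figure D2:**
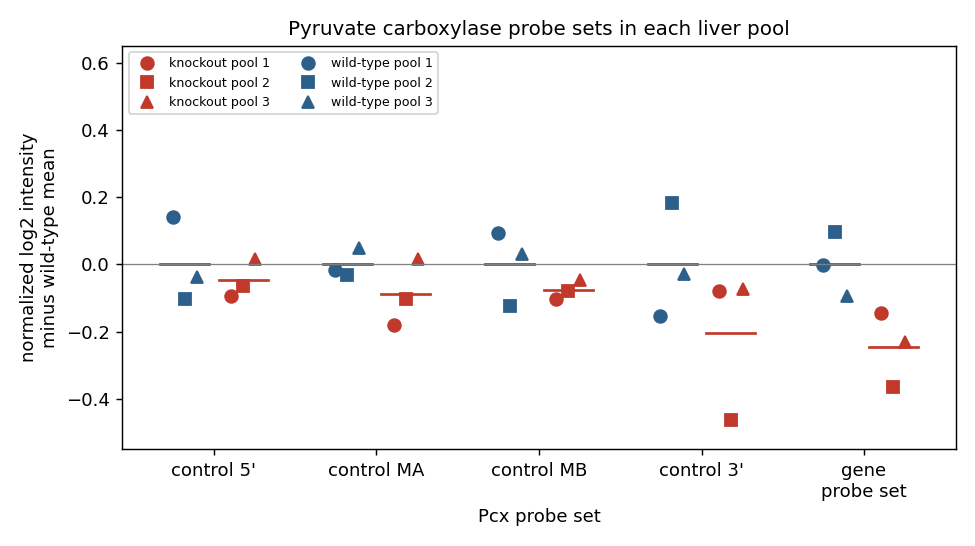
Normalized log2 intensity at the 4 Pcx control probe sets, from 5′ to 3′, and at the Pcx gene probe set, each minus its own wild-type mean; symbols are pools and bars group means. The genotypes overlap at all 4 controls and separate at the gene probe set, and knockout pool 2 is lowest at the 3′ control and the gene probe set.

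Fbp1, which encodes the liver fructose bisphosphatase that bypasses phosphofructokinase, had the smallest difference of the 9. Knockout pools 1 to 3 read 13.35, 13.48 and 13.27, against 13.31, 13.31 and 13.36 for wild-type pools 1 to 3. The difference was 0.04 ± 0.07, and its 95% interval, -0.11 to 0.20, was the narrowest among the brightest probe sets of the 9 genes. Without knockout pool 2 it was -0.01. Its deposited intensities, 9862 to 11313, lie toward the top of a table that ends at 16555, and whether the signal still rises with the transcript there was not tested.

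Release of glucose needs a phosphatase and a transporter that work as a pair in the membrane of the endoplasmic reticulum. G6pc encodes the catalytic subunit of glucose-6-phosphatase, a gene that fasting induces and insulin represses. Knockout pools 1 to 3 read 12.29, 11.62 and 11.63, against 11.75, 12.20 and 12.44 for wild-type pools 1 to 3, and the groups overlapped because knockout pool 1 was high and wild-type pool 1 low. The difference was -0.28 ± 0.21 (95% interval -0.77 to 0.20; adjusted p = 0.803). It was -0.50 without knockout pool 1 (unadjusted p = 0.0247) and -0.17 when pool 2 was omitted instead; omitting wild-type pool 3 gave -0.13. Wild-type pool 1 was below the other wild-type pools for Pck1 too, and wild-type pool 3 was the highest array for both genes.

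Slc37a4 encodes the transporter that carries glucose-6-phosphate to that phosphatase. Knockout pools 1 to 3 read 10.25, 9.44 and 10.28, against 10.34, 10.43 and 10.68 for wild-type pools 1 to 3, every knockout pool being lower on this scale, though not on the deposited one. The difference was -0.49 ± 0.21 (95% interval -0.98 to -0.01; unadjusted p = 0.0475, adjusted p = 0.643), 1.41-fold lower. Without knockout pool 2 it was -0.22 (unadjusted p = 0.0960), less by over 1.5 times.

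Slc2a2 encodes GLUT2, the low-affinity glucose carrier of the hepatocyte surface. Knockout pools 1 to 3 read 11.67, 10.42 and 11.45, against 11.70, 11.67 and 11.26 for wild-type pools 1 to 3. Knockout pool 2, with an intensity of 1251 where the other 5 arrays read 2771 to 3720, was the low value, and the remaining arrays overlapped. The difference of -0.36 ± 0.29 (95% interval -1.02 to 0.29; adjusted p = 0.814) became 0.02 without that pool.

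Ppargc1a, which encodes PGC-1α, was higher in the knockout at all 5 of its probe sets. PGC-1α is the fasting-induced coactivator that raises Pck1 and G6pc transcription with HNF4α and FOXO1, and it also drives mitochondrial genes. Deposited intensities at the brightest probe set were 109, 191 and 237 for knockout pools 1 to 3, against 124, 65.1 and 151 for wild-type pools 1 to 3. On the normalized scale these were 7.06, 7.74 and 7.79 against 6.75, 6.37 and 7.11. Knockout pools 2 and 3 were above every wild-type pool, and knockout pool 1 lay just under wild-type pool 3, so the groups overlapped. The difference was 0.79 ± 0.24 (95% interval 0.24 to 1.34; unadjusted p = 0.0105, adjusted p = 0.514). The other 4 probe sets differed by 0.39 to 0.86, and 2 of them had an unadjusted p under 0.05. Knockout pool 3 was the highest array at each of the 5, and the genotypes overlapped at each. These probe sets read the same RNA on the same arrays and are not separate evidence. Leaving out any single pool kept the brightest one between 0.61 and 1.03, with an unadjusted p of at most 0.0438, and no such fit brought the adjusted p under 0.287.

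The order of the pools for the coactivator was set beside that of its textbook targets. Knockout pools 2 and 3, where Ppargc1a was highest, were the 2 lowest arrays for G6pc, at 11.62 and 11.63. For Pck1, knockout pool 3 was second to wild-type pool 3, and knockout pool 2 lay in the middle of the 6 arrays. No correlation was computed over these 6 arrays, since each genotype has 3.

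Among the genes of glucose sensing, Gckr and Pklr differed in sign. Gckr encodes a nuclear regulatory protein of hepatic glucose metabolism. Knockout pools 1 to 3 read 10.13, 10.26 and 9.99, against 9.97, 9.80 and 9.56 for wild-type pools 1 to 3, so that every knockout pool was higher. The margin was narrow, 9.99 against 9.97, and the deposited intensities overlapped. The difference was 0.35 ± 0.12 (95% interval 0.07 to 0.63; unadjusted p = 0.0204, adjusted p = 0.578), 1.27-fold higher. It was 0.28 without knockout pool 2 (unadjusted p = 0.0702) and 0.24 without wild-type pool 3 (unadjusted p = 0.0700).

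Pklr encodes a pyruvate kinase whose liver and red cell forms are transcribed from separate start sites, and its liver promoter, the downstream one, carries the carbohydrate response element printed above. At the brightest probe set the wild-type pools were nearly equal, at 9.15, 9.13 and 9.13, an SD of 0.01 where the median gene had 0.15. The knockout pools were spread out below them, at 9.08, 8.34 and 8.70, with an SD of 0.37 where the median gene had 0.17. The difference was -0.43 ± 0.17 (95% interval -0.82 to -0.04; unadjusted p = 0.0328, adjusted p = 0.612), 1.35-fold lower. The other probe sets differed by -0.35 and -0.46, with knockout pool 2 lowest at each. Knockout pool 1 was the highest of all arrays at the first, at 8.22. At the second it read 9.11, above wild-type pool 1 alone. Without knockout pool 2 the 3 differences were -0.25, -0.12 and -0.25, and none had an unadjusted p under 0.05. Without knockout pool 1 they were -0.62, -0.59 and -0.68. Red cell markers, which could carry Pklr transcript of the erythroid start site, differed widely within each genotype. Their summed intensity ran from 166 to 1012 in knockout pools and from 236 to 1193 in wild-type ones, and 1 of the 4 with a probe set, Alas2, was tested (-0.39 log2). Their part in the Pklr values was not tested. In bulk liver, fewer cells of a type and less RNA per cell cannot be told apart.

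**Figure D3:**
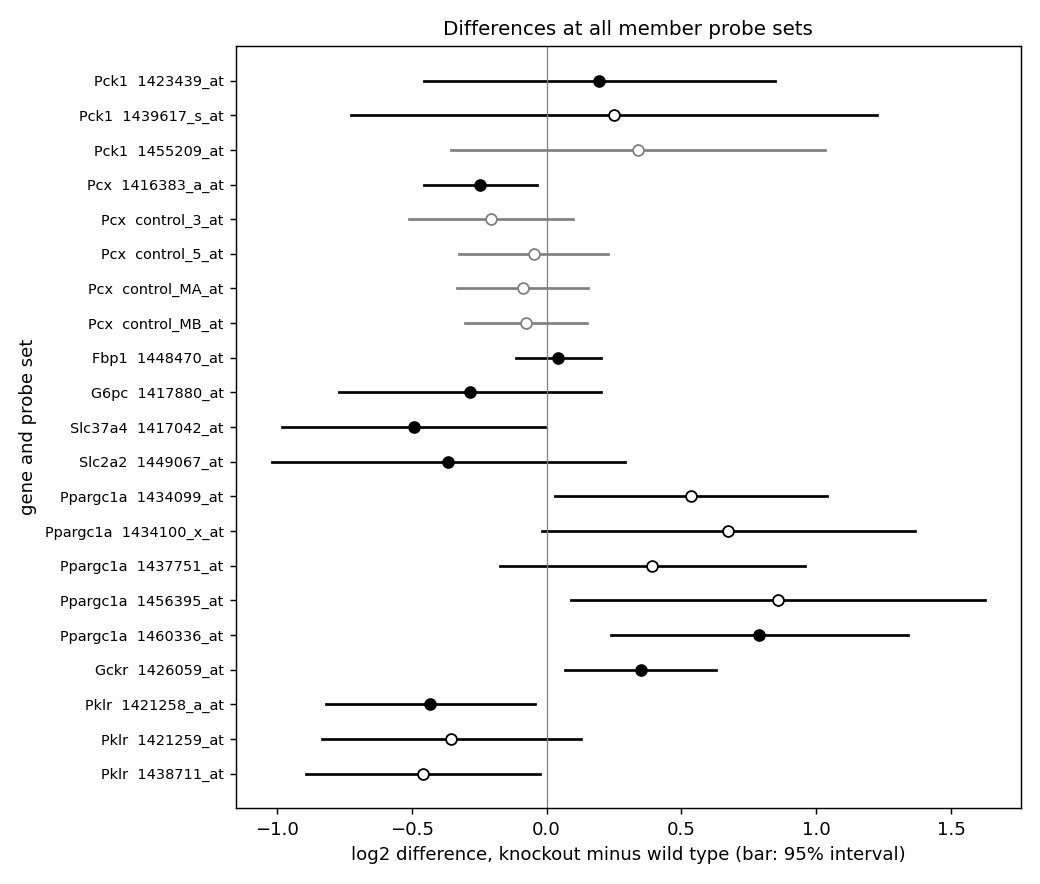
Log2 difference, knockout minus wild type, with its 95% interval at all 21 probe sets of the 9 genes; filled points are the brightest tested probe set of a gene, open points its other probe sets, and grey marks probe sets outside the main test. All 5 Ppargc1a probe sets lie above 0 and all 3 Pklr probe sets below 0, and none passed the adjusted threshold.

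Other cells that make these transcripts were looked for on the same arrays. Kidney, which also performs gluconeogenesis, was represented by 7 markers, of which 6 were under the filter, Umod and Slc34a1 among them, and the summed intensity was 43.3 to 67.9 in knockout pools and 48.9 to 80.5 in wild-type ones. All 4 fat cell markers with a probe set were under the filter. Pancreas, whose islets also make GLUT2, was represented by 7 markers. The 5 under the filter included the hormone genes Ins2, Gcg and Iapp, and both tested ones, of digestive enzymes, were dim and higher in the knockout. They were Cela2a at 0.59 ± 0.23 (unadjusted p = 0.0322, adjusted p = 0.612) and Prss2 at 0.40 ± 0.29. The summed intensity of the pancreas list did not overlap, at 71.1 to 72.7 in knockout pools and 40.3 to 67.9 in wild-type ones. That of 6 skeletal muscle markers did not overlap either, at 43.2 to 48.6 against 52.8 to 71.7, with 5 of the 6 under the filter and Ckm at -0.15 ± 0.30. The 5 intestine markers with a probe set had a larger sum, 467 to 541 in knockout pools and 450 to 696 in wild-type ones. Of these, 1 was tested, Fabp2, at -0.20 ± 0.16. Pck1 and G6pc are most abundant around the portal vein, so zonal markers were read too. The median difference was 0.20 log2 over 6 periportal markers, 4 of them higher, and -0.16 over 9 pericentral markers, 7 of them lower. Limma called 0 of these 15, where 0.144% of all tested genes passed. An unadjusted p under 0.05 was seen for 1 of the 15, where 8.22% of all genes had one. It was the periportal gene Hsd17b13, named after its value was seen. Knockout pool 2 had the highest intensity for periportal Hal (3263) and Aldh1b1 (1364). It had the lowest for pericentral Glul (1794), Cyp1a2 (3120), Cyp2e1 (10110), Slc1a2 (66.7), Lgr5 (47.3) and Axin2 (30.3). The same pool was instead lowest for periportal Ass1 and highest for pericentral Oat. For periportal Cyp2f2, Hsd17b13 and Cdh1 and pericentral Tbx3 and Rhbg it was neither. This pool was singled out after the values were seen. Summed intensities overlapped between the genotypes, at 14598 to 18680 and 14786 to 16139 for the periportal list and at 21351 to 24051 and 22391 to 26189 for the pericentral list. Their part in the values of the 9 genes was not tested.

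The rest of glucose metabolism was read through 6 lists of 131 genes, 114 of them tested. Limma called 0, where 0.144% of all tested genes passed, and 6 had an unadjusted p under 0.05, 2 higher and 4 lower, where 8.22% of all genes did. On the normalized scale the groups did not overlap for 12 of the 114, where 13.9% of all genes did not overlap. The median difference of the 114 was -0.01 log2, and the medians of the 6 lists ran from -0.05 to 0.05.

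Of 17 other gluconeogenic enzymes and carriers tested, 10 were higher and 7 lower (median 0.02). G6pc3, the widely expressed phosphatase paralog of G6pc, was at 0.59 ± 0.24 (unadjusted p = 0.0402, adjusted p = 0.630), from intensities of 16.6 to 51.8. Car5a, a mitochondrial carbonic anhydrase that supplies bicarbonate to pyruvate carboxylase, was at 0.24 ± 0.12, the alanine aminotransferase gene Gpt at 0.20 ± 0.12 and the mitochondrial malate dehydrogenase gene Mdh2 at 0.16 ± 0.10. Without knockout pool 2, Gpt was at 0.081 and Mdh2 at 0.049, and without knockout pool 1 Car5a was at 0.16. Of the 2 tested Gpt probe sets, 1 was higher. Of 15 glycolytic enzymes, 7 were higher and 8 lower, with 0 at an unadjusted p under 0.05. The hexokinase gene Hk1 was at 0.39 ± 0.19, and Eno3, Pfkfb2 and Hk2 were at -0.32 each, with SEs of 0.18 to 0.22. Hk1 was at 0.22 without knockout pool 2, and Hk2 was at -0.14 without knockout pool 3. Without wild-type pool 3, Eno3 was at -0.20 and Pfkfb2 at -0.19.

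Among 34 hormone and transcriptional regulators of gluconeogenesis, 15 were higher and 19 lower. Cebpb, a bZIP factor that binds the Pck1 promoter, had the largest difference, -1.11 ± 0.33 (unadjusted p = 0.00871, adjusted p = 0.489). Its intensities were 512, 340 and 1089 without Nrf2, against 1332, 961 and 2130 with it, and on the normalized scale every knockout pool was lower. The glucagon receptor gene Gcgr, the entry point of the fasting signal, was at -0.26 ± 0.10 (unadjusted p = 0.0350), also without overlap on that scale, and at -0.17 without knockout pool 2 (unadjusted p = 0.106). The deposited intensities of both genes overlapped. Stat3 was at 0.31 ± 0.14, or 0.17 without wild-type pool 2, and 2 of its 3 tested probe sets were higher. The nuclear receptor gene Esrra, a partner of PGC-1α, was at -0.26 ± 0.13, likewise without overlap on the normalized scale but not on the deposited one. Of its 2 tested probe sets, 1 was lower. Of 18 genes of ChREBP and its targets, 8 were higher and 10 lower, and 0 had an unadjusted p under 0.05. The fructokinase gene Khk was at -0.32 ± 0.17 with knockout pool 2 lowest at 1550 and -0.13 without it. The elongase gene Elovl6 was at -0.57 ± 0.30, with wild-type pool 3 highest at an intensity of 1820, and at -0.21 without that pool. Arrdc4 was at 0.35 ± 0.17, or 0.23 without knockout pool 2, and Nr1h3 at 0.19 ± 0.11.

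Of 17 glycogen genes, 8 were higher and 9 lower. The branching enzyme gene Gbe1 was at -0.72 ± 0.24 (unadjusted p = 0.0162, adjusted p = 0.560), its knockout pools reading 356, 196 and 470 against 734, 448 and 642. Knockout pool 2 was again lowest, and without it Gbe1 was at -0.40. The liver phosphorylase gene Pygl was at -0.26 ± 0.11 (unadjusted p = 0.0414), Pygb at 0.56 ± 0.26 and Pgm1 at 0.16 ± 0.09. Pygb read 135 in knockout pool 2 and 51.3 to 75.1 on the other 5 arrays, and it was at 0.24 without that pool. Pgm1 was at 0.086 without wild-type pool 3, and 1 of its 2 tested probe sets was higher. Of 14 fasting-induced genes, 8 were higher and 6 lower. The fatty acid hydroxylase gene Cyp4a14 was at 3.67 ± 0.93 (unadjusted p = 0.00372, adjusted p = 0.391), its knockout pools reading 60.7, 391.5 and 2051 against 31.9, 14.0 and 40.9. It passed in 1 of 15 alternatives, that without knockout pool 1, at 4.87 (limma adjusted p = 0.0420). With each pool left out in turn, the Cyp4a14 difference ran from 2.54 to 4.87. Over the alternatives its adjusted p reached 0.843. The hormone gene Fgf21 was at -0.40 ± 0.39, Cited2 at -0.21 ± 0.19 and Fmo5 at 0.16 ± 0.09, and none of these 3 had an unadjusted p under 0.05. Fgf21 was at 0.0055 without knockout pool 2, and Cited2 at -0.025 without knockout pool 3.

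**Figure D4:**
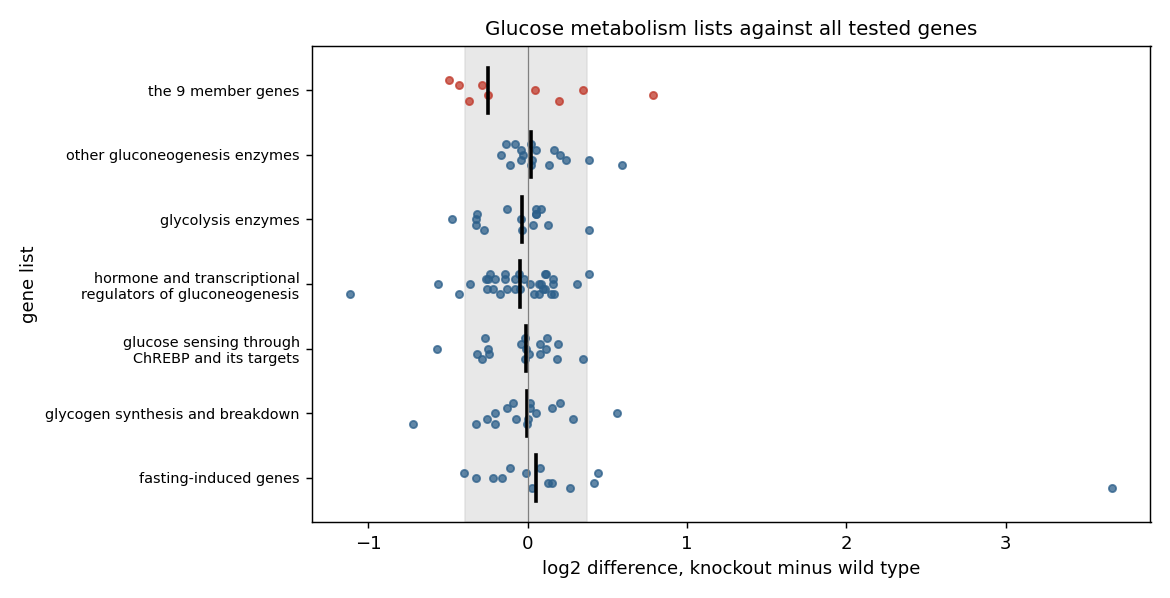
Log2 difference, knockout minus wild type, of the 9 genes and of the tested genes of 6 glucose metabolism lists, 1 point per gene, with the list median as a black bar and the 5th to 95th percentile of all 11102 genes in grey (-0.39 to 0.37). The medians of the 6 lists sit near 0, that of the 9 genes is at -0.25, and Cyp4a14 is the point at 3.67.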

How the data were processed

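The arrays were 1-colour Affymetrix mouse arrays. The authors deposited linear probe set intensities of 0.0174 to 16555. Per the submitters' processing notes, GCOS 1.4 was used, and no source used here gives the signal algorithm or scaling. Trimmed means differed between arrays, so log2(intensity + 5.26) values, the pseudocount being the 25th percentile, were quantile normalized. After removal of 64 controls, 22519 probe sets with a mean at or above the median were tested with limma 3.58.1 in R 4.3.3 (intensity trend, Benjamini-Hochberg over all probe sets, threshold 0.05, two-sided). The 95% intervals come from the same fit. The procedure was tested on simulated data.

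Names come from the platform annotation, updated by Entrez identifier for 34741 probe sets. Of the probe sets, 34945 had 1 gene, 932 several and 9160 none here. A gene took its brightest tested probe set. Other probe sets disagreed in sign for the list genes Gpt, Stat3, Esrra and Pgm1. Named were Nfe2l2, all 9 genes, and in each list the 4 genes with the smallest p and any past the threshold. Marker sums are of normalized intensities. The members and lists were chosen with earlier results of these data known. The p-values reflect pool-to-pool spread, the labels do not say whether pools shared animals, and 3 arrays per genotype limit the precision. Promoters come from RefSeq, and all 9 genes matched.

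The alternatives were median centring, pseudocounts of 1.31 or 21.0, a filter at the 70th percentile or none, array weights, an untrended eBayes, a block for replicate number, omission of each pool in turn, and averaging of all probe sets of a gene. Keeping the control probe sets was added after seeing the data.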

Additional observations from a re-analysis of the deposited data

How the results depend on the processing

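The count of called member probe sets was 0 under every alternative run. With all pools kept, no tested member probe set reversed, including when a gene took the mean of its probe sets. With a pool left out, reversals were seen for Pck1 (-0.10 to 0.56 over the 6 fits, and -0.18 to 0.82 at its second probe set), Fbp1 (-0.014 to 0.10), Slc2a2 (-0.61 to 0.015) and, among list genes, Fgf21 (-0.81 to 0.0055). The number of member genes at an unadjusted p under 0.05, 5 in all, was 2 without the intensity trend, 3 with array weights and 1 to 6 with a pool left out: 1 without knockout pool 2, 2 without wild-type pool 1 or 2, and 3 without wild-type pool 3. The member median of -0.25 was -0.10 with array weights and -0.30 to -0.014 with a pool left out. Over all probe sets, 32 calls became 20 with no filter, 19 with the stricter filter, 18 without the trend and 18 to 29 with a pool left out (19 without knockout pool 1 or 2, 18 without wild-type pool 2). The 16 called genes became 9 without the trend. Calls among list genes ranged from 0 to 1. The cause was not tested.

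The replicate numbers were not taken as pairs, because the labels do not say that equal numbers share animals, litter or day. Same-numbered pools deviated together with correlations of 0.13, 0.05 and 0.25 over all tested probe sets. Without those of unlike numbers beside them, these do not decide whether the numbers are pairs. Single genes followed the number. Lpin1 intensities were 248, 494 and 2204 in knockout pools 1 to 3 and 450, 247 and 3530 in wild-type ones. Pck1, Angptl4 and Per1 were also highest in pool 3 of each genotype, and Alas2 and Ppp1r3c lowest. Igfbp1 and Tat were highest there in the wild type only. These genes were picked after their values were seen, and the cause was not tested. With the replicate number as a block, 32 probe sets, 20 genes and 0 member probe sets were called. Median centring moved the median of all genes from 0.01 to -0.03. The dimmest Pck1 probe set had no value in the filtered fits.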
